A study of Mus musculus with 2 samples.

Results

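Mir126a, Mir143 and Mir145a are the microRNA (miRNA) loci of blood vessel walls, and they were measured here in the newborn mouse forebrain. They were chosen by name, as the 3 rows of the deposited tables whose Ensembl identifiers belong to these genes, out of 1973 rows in all. The series holds 1 group, the forebrain of B6NCrl mice on postnatal day 0, with 1 library from the single forebrain of pup 1 and 1 from that of pup 3. Both pups carry the same donor entry, and their sex was not collected. No treatment or genotype was compared. The results are therefore the level of each locus, its spread over the pups (given as mean ± SD, always with n = 2) and how the libraries differ.

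A vessel wall has an inner lining of endothelial cells and an outer layer of mural cells, which are smooth muscle cells on larger vessels and pericytes on capillaries. miR-126 is made mainly in endothelial cells, from within the gene Egfl7, which encodes a protein that endothelial cells secrete. It is known for holding up vascular endothelial growth factor signalling by repressing Spred1, an inhibitor of that pathway. miR-143 and miR-145 are made from a shared precursor transcript in smooth muscle, where they are known to favour the contractile over the dividing state, and they are commonly used as mural markers. Fibroblasts make them as well, so neither marks mural cells exclusively.

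Mir126a (ENSMUSG00000065540.1) lies on chromosome 2 of GRCm38, from 26591357 to 26591429 on the plus strand. Of 9 annotated Egfl7 transcripts that span its hairpin, 8 carry it in an intron and 1, a retained-intron form, carries it in an exon. The hairpin and the mature sequences at this place are shown because another miRNA gene, Mir126b, lies on the opposite strand of the same bases (26591363 to 26591420). Sequences are from RefSeq (GRCm38.p6), 5′ to 3′, and 1 of the 3 loci had an entry there. The only mature sequence listed there for Mir126a was miR-126a-3p, so any product of the other arm of its hairpin is not shown. Capitals mark the mature miR-126a-3p (bases 46 to 67) in the hairpin, and the seed, bases 2 to 8 that pair with target messenger RNAs, in the mature sequences.
Mir126a hairpin: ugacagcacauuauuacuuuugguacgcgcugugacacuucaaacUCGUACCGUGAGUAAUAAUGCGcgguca
mmu-miR-126a-3p: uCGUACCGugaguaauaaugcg
mmu-miR-126b-5p: aUUAUUACucacgguacgaguu
mmu-miR-126b-3p: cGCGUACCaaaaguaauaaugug

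The seed of miR-126a-3p, CGUACCG, occurred in 1 of the 1738 mature miRNAs of the RefSeq table, namely itself. Its first 6 bases, CGUACC, stand 1 base further in, at positions 3 to 8, in miR-126b-3p, which was the single mature miRNA of the table with them there. The mature sequences of miR-126a-3p and miR-126b-5p come from opposite strands and cover 19 of the same bases. Mir126b had no row of its own. A read from it would be counted on the strand opposite Mir126a, where pup 1 had 5 counts and pup 3 had 3, against 83700 and 86338 counts on the strand of Mir126a. The opposite strand thus held 0.00597% of the counts at this place in pup 1, with a Clopper-Pearson (exact 95%) interval of 0.00194 to 0.0139%. In pup 3 it held 0.00347% (0.000717 to 0.0102%). Of the counts summed over all loci it held 2.41% and 1.87%, which need not be the share at a typical locus. At Mir143 and Mir145a the opposite strand had 0 counts in both pups. Counts are per locus and do not separate the arms of a hairpin.

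Mir143 (ENSMUSG00000065445.2) and Mir145a (ENSMUSG00000065592.1) lie together on chromosome 18, on the minus strand, at 61649196 to 61649258 and at 61647825 to 61647894. The hairpins are 1301 bases apart, with Mir143 upstream. The annotations disagree on the host transcript, Carmn, a long noncoding RNA. In GENCODE M21, Carmn ends 366 bases before Mir143 begins and holds neither hairpin. The RefSeq gene, from 61645878 to 61665538, holds both. The hairpins of all 3 loci share no run of 20 bases with any of the 1894 miRNA loci that could be compared, on either strand. Reads that map to several places, which were 42.2% of all reads in pup 1 and 44.1% in pup 3, are counted at no locus.

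The endothelial locus stood far above the mural loci in both pups. Mir126a had 30517 CPM (counts scaled to a gene-strand total of 1e+06) in pup 1 and 35573 in pup 3, a mean of 33045 ± 3575 CPM. It was the fifth most abundant locus in pup 1 and the fourth in pup 3. Mir143 had 4307 CPM in pup 1 and 3698 in pup 3 (4003 ± 431 CPM), which placed it at rank 40 and rank 44. Mir145a had 136 CPM in pup 1 and 111 in pup 3 (123 ± 17.8 CPM), at rank 194 and rank 197. The order of the 3 loci was the same in both pups, and the values of no locus reached those of the next. Levels are counts of whole short reads and were not divided by hairpin length, since a read comes from the mature miRNA. Ligation favours some miRNA sequences over others, so the folds between loci are those of reads, and how far they hold for molecules was not tested.

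**Figure D1:**
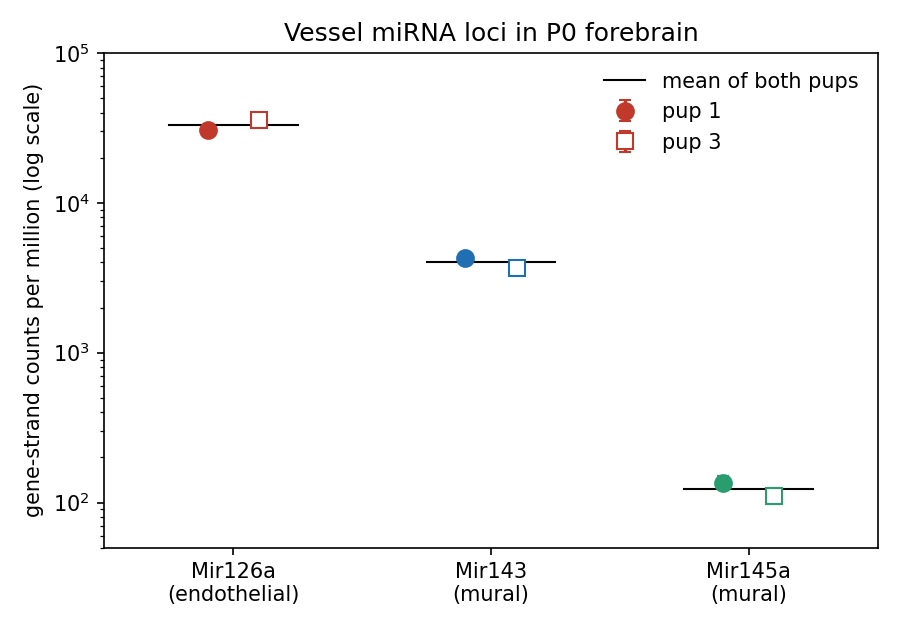
CPM on a log axis for Mir126a, Mir143 and Mir145a, with filled circles for pup 1, open squares for pup 3, exact 95% intervals of counting error (mostly smaller than the symbols) and a line at the mean. The 3 loci stand at about 33045, 4003 and 123 CPM, and the pups lie close together at each.

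The depth behind these values differed between the loci. The libraries had 2742746 (pup 1) and 2427066 (pup 3) gene-strand counts. At Mir126a the exact 95% interval ran from 30314 to 30721 CPM in pup 1 and from 35340 to 35807 in pup 3. At Mir145a, with 373 counts in pup 1 and 269 in pup 3, it ran from 123 to 151 CPM and from 98.0 to 125 CPM, so the intervals of the pups met there and not at Mir126a. Those of Mir143, from 4230 to 4386 and from 3622 to 3775 CPM, were apart. Intervals cover the counting error of reads only. Copies of a molecule made by PCR count as separate reads, so for molecules the intervals may be too narrow. The spread between the pups, as a coefficient of variation of CPM on library totals, was 10.8% for Mir126a, 10.8% for Mir143 and 14.4% for Mir145a. Each pup gave 1 library, so differences between animals and between libraries are not separated. The choice of scale, taken up below, changes these values and their order.

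Most of the reads of the 3 loci came from Mir126a in both pups, with a larger share in pup 3. Mir126a held 87.3% of the counts of the 3 loci in pup 1 (exact interval 87.1 to 87.5%) and 90.3% in pup 3 (90.1 to 90.5%). Its counts were 6.87 times those of Mir143 and Mir145a together in pup 1 (6.74 to 7.00) and 9.34 times in pup 3 (9.14 to 9.54), a mean of 8.10 ± 1.75. The ratio was 1.36 times as large in pup 3 (exact interval 1.32 to 1.40). Such a ratio is taken within a library and does not depend on how libraries are scaled. The intervals do not overlap, but each side is 1 animal, and a ratio that differs between 2 animals has no replicate check.

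Against either mural locus alone, the ratio of Mir126a was also higher in pup 3. Mir126a enters both ratios, so they are not separate checks. Mir126a stood at 7.08 times Mir143 in pup 1 and 9.62 times in pup 3, and at 224 and 321 times Mir145a. Between the pups the first of these ratios changed 1.36-fold (1.32 to 1.40) and the second 1.43-fold (1.22 to 1.68). In bulk tissue, a lower number of cells of a type and less miRNA per cell cannot be told apart.

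Within the mural cluster the gap was wide and nearly equal in both pups. Mir143 had 31.7 times the counts of Mir145a in pup 1 (exact interval 28.6 to 35.2) and 33.4 times in pup 3 (29.6 to 37.8), a mean of 32.5 ± 1.20. The intervals overlap. The ratio in pup 3 was 1.05 times that in pup 1, with an exact interval of 0.896 to 1.24, so a change of up to about that size in either direction was not detectable at the depth of Mir145a. Of the reads of the 2 mural loci, 3.06% in pup 1 and 2.91% in pup 3 came from Mir145a.

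**Figure D2:**
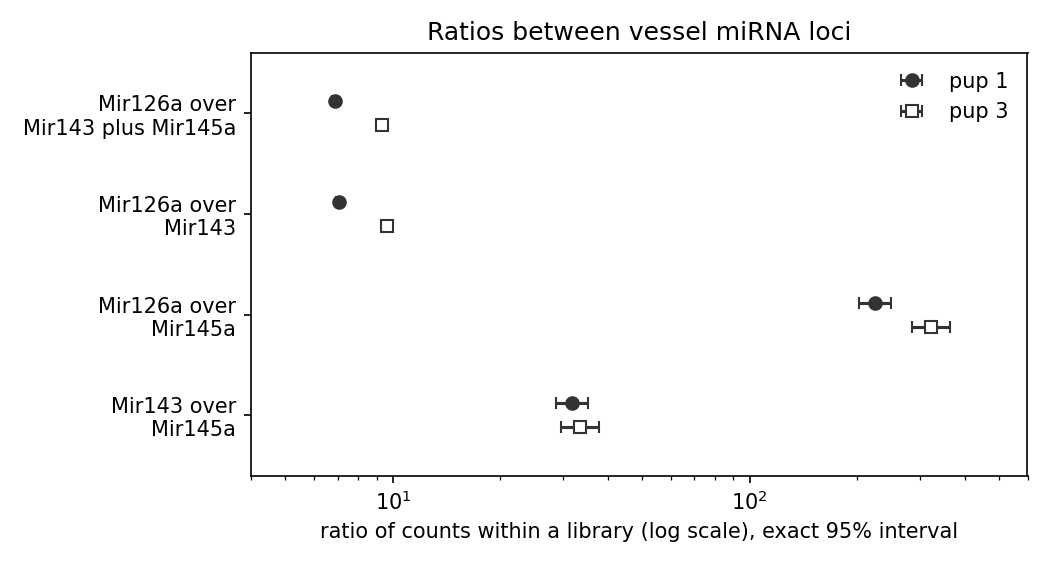
Ratios of counts within each library on a log axis, with filled circles for pup 1, open squares for pup 3 and exact 95% intervals. The 3 ratios with Mir126a are higher in pup 3 (9.34 against 6.87 over both mural loci), whereas Mir143 over Mir145a is 31.7 and 33.4 with overlapping intervals.

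The gap between Mir143 and Mir145a was set beside those of other miRNA clusters, where a cluster is a chain of loci on a strand with no step over 10 kb, counting loci with at least 10 counts in both pups. Of 42 clusters with at least 2 such loci, 17 had a highest-to-lowest fold as large as that of Mir143 over Mir145a or larger, itself included. Among the 28 clusters with exactly 2 such loci, it was 9, and the median fold was 7.16. In 18 of the 42 clusters, the highest or the lowest locus shares a run of 20 bases with another hairpin and may lack reads that map to several places. Neither locus shares a run in 15 of the 28, and of these 15, 3 had a gap this large or larger, Mir143 over Mir145a among them. The gap of Mir143 over Mir145a shifted by 0.08 on the log2 scale between the pups, against a median absolute shift of 0.23 over the 42 clusters, and 4 clusters shifted less. This measure was chosen after the values were seen. The exact interval of the shift, −0.16 to 0.31, covers that median, so its place among the clusters is within counting error.

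**Figure D3:**
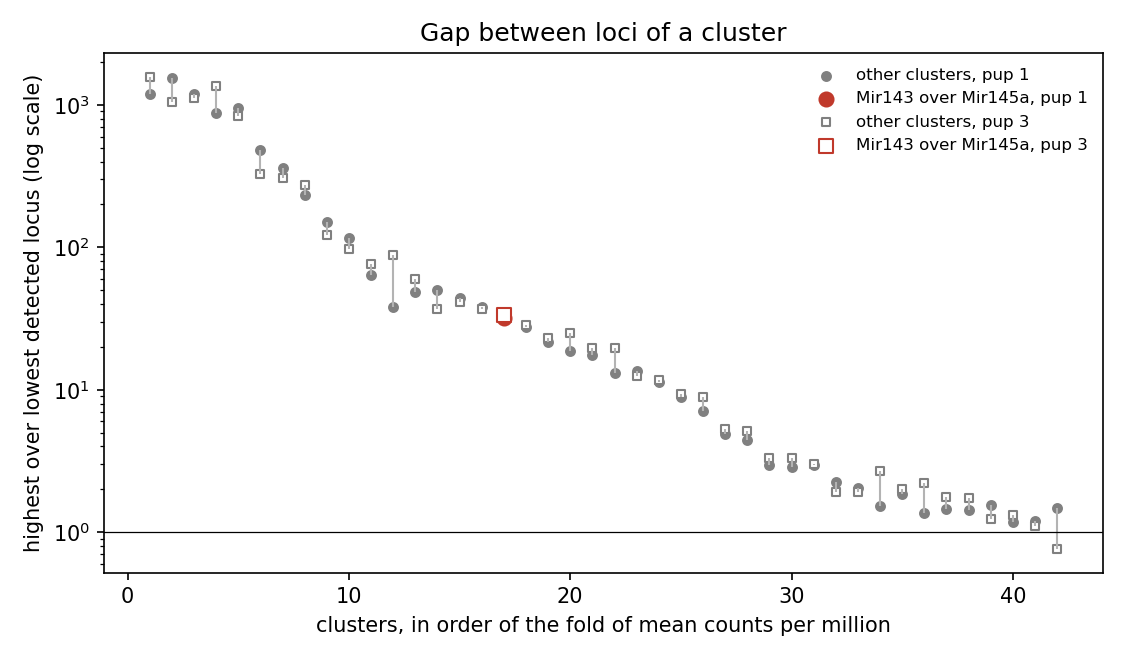
Highest over lowest detected locus in each of 42 miRNA clusters on a log axis, in order of size, with filled circles for pup 1 and open squares for pup 3 joined by a line. Mir143 over Mir145a, in red, has the 17th largest gap, and its circle and square nearly coincide at 31.7 and 33.4.

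The libraries were then compared locus by locus. Each locus with at least 10 summed counts was tested against the rest of its library by Fisher's exact test, two-sided, with Benjamini-Hochberg adjustment over all 400 such loci. The test compares these libraries and not a condition, and it called 56.5% of the loci, 10.2% higher and 46.2% lower in pup 3. As shares of library totals, Mir126a was higher in pup 3, with a log2 ratio of CPM + 1 of 0.22 (adjusted Fisher's exact p = 4.36e-225). Mir143 was lower, at −0.22 (adjusted Fisher's exact p = 3.81e-27), and so was Mir145a, at −0.29 (adjusted Fisher's exact p = 0.0209). Calls were this common over all loci, so the place of each locus among the others is given next.

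That place differed between the endothelial and the mural loci. The median log2 ratio of the 331 loci with at least 10 counts in both pups was −0.31. Mir126a lay 0.53 above this median, and 38 of the 331 loci had a higher ratio. Mir143 lay 0.09 above it and Mir145a 0.02 above it, with 126 and 154 loci higher. By distance from the median in either direction, 65 loci lay farther out than Mir126a, 253 farther than Mir143 and 310 farther than Mir145a. The mural loci thus had about the ratio of the typical locus, and Mir126a did not. The loci next to Mir126a in level also lay above the median. Their log2 ratios were 0.06 (Mirlet7g), 0.70 (Mirlet7i), 0.23 (Mir100) and −0.09 (Mir149). Whether the place of Mir126a goes with its level or its cell type was not tested.

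The choice of scale decided the direction of the mural loci. Against library totals, TMM sizes from edgeR raise log2 ratios of CPM by 0.25 and DESeq2 size factors by 0.31, and by less at low loci once 1 CPM is added. With TMM sizes, Mir126a was higher at 0.47, while Mir143 at 0.031 (adjusted exact binomial p = 0.223) and Mir145a at −0.044 (adjusted exact binomial p = 0.844) did not pass. TMM sizes called 46.5% of loci, 20.5% higher and 26% lower. With size factors, Mir126a was higher at 0.53 and Mir143 was higher at 0.093 (adjusted exact binomial p = 1.39e-05), while Mir145a at 0.018 did not pass (adjusted exact binomial p = 0.934). Size factors called 45.2% of loci, 24.5% higher and 20.8% lower. Mir126a was thus higher in pup 3 on each of these scales, and the direction of Mir143 and Mir145a was not settled. The call of Mir145a was also lost when Mir99a, the most abundant locus, was left out of the totals (−0.24, adjusted Fisher's exact p = 0.0716). Of all loci, 53.1% were then called, 11.5% higher and 41.6% lower.

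**Figure D4:**
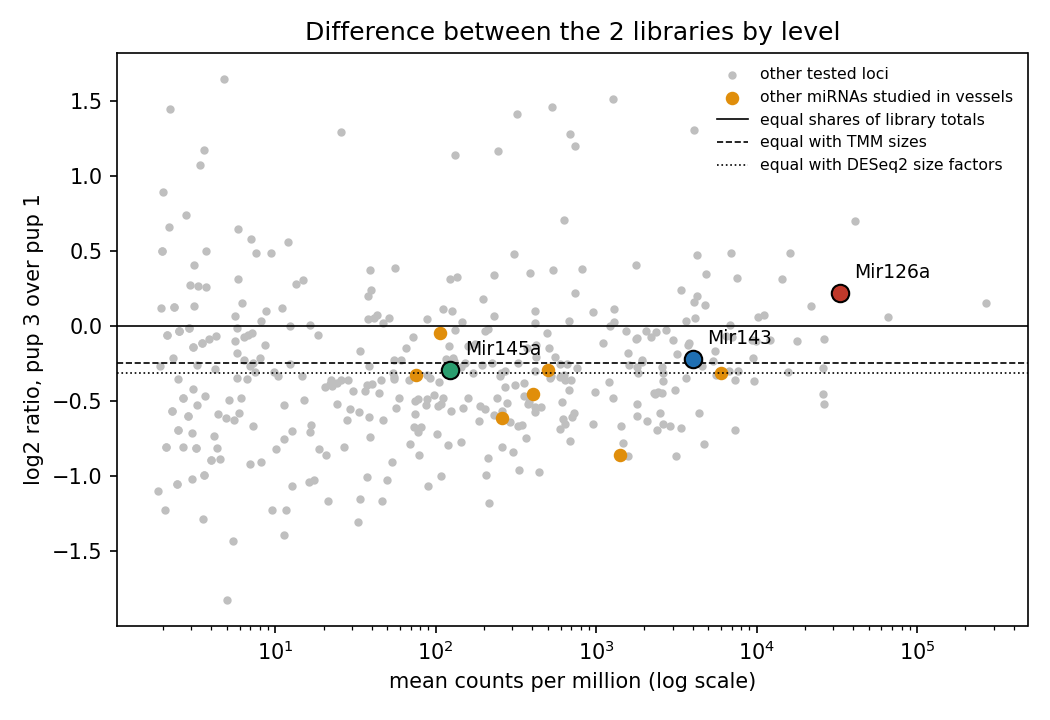
Log2 ratio of pup 3 over pup 1 against mean CPM (log axis) for the 400 tested loci in grey, the 3 vessel loci as large labelled points and 7 other miRNAs studied in vessels in orange. Horizontal lines mark equality under library totals, TMM sizes and DESeq2 size factors; Mir126a at 0.22 lies above all 3 lines, and Mir143 and Mir145a lie near the lower ones.

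Other miRNAs that have been studied in vessels, and that many other cell types make too, had a median ratio near that of all loci. All 7 of this list were detected, with a median log2 ratio of −0.33 against −0.31 over all tested loci. Single loci of the list ran from −0.86 to −0.05. As shares of totals, 6 of the 7 were lower in pup 3 and none higher, where 46.2% of all loci were lower and 10.2% higher. With size factors 2 were lower and none higher, against 20.8% and 24.5% of all loci. How the list differs from Mir126a was not tested. The highest was Mir322, of the X-linked cluster that also holds Mir503, with 6694 CPM in pup 1 and 5375 in pup 3. The next was Mir296, which had 1810 CPM in pup 1 and 996 in pup 3, and was lower on either scale (log2 ratios of −0.86 and −0.55). The other locus lower on either scale was Mir210, which responds to low oxygen, at 315 and 206 CPM. It is named here after its values were seen. Mir145b, listed with the mural loci, had 0 counts in both pups, which allows up to 1.09 CPM in pup 1 and 1.24 CPM in pup 3.

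Markers of other cells that a forebrain sample can hold were read from the same tables. Their counts of calls stand against the same shares of all loci, 10.2% higher and 46.2% lower with totals, and 24.5% higher and 20.8% lower with size factors. With so few loci in each list, nothing is read from these counts. Mesenchyme and fibroblast loci, which meninges and vessel sheaths express, summed to 7406 CPM in pup 1 and 6662 in pup 3. They were led by Mir21a (3880 and 3546 CPM) and Mir140 (3375 and 2962 CPM). Of 5 tested, these 2 were lower with totals, while with size factors 3 were higher (24.5% of all loci). Mir199a-2, with 8 and 7 counts, and Mir199a-1, with 1 and 0, were close to the floor. Of the others in this list, Mir214 had more CPM in pup 3 (123 and 131) and Mir199b fewer (25.2 and 19.0). Red blood cell loci summed to 88.2 and 71.3 CPM, with Mir451a (51.0 and 37.1 CPM) and Mir144 (25.2 and 19.4 CPM) highest. Of these 3 loci, 1 was lower with totals (46.2% of all loci) and none passed with size factors (45.2% of all loci). White blood cell loci, without Mir142, which had no row, summed to 328 and 355 CPM, led by Mir150 (184 and 208 CPM) and Mir223 (144 and 147 CPM). Neither passed with totals, and both were higher with size factors (24.5% of all loci). Their part in the values of the vessel loci was not tested.

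Striated muscle loci were at or near 0. Of the 5 loci with a row, 4 had 0 counts in both pups, among them Mir1a-1 and Mir133a-1, and Mir206 had 20 and 11 counts. Copies of miR-1 and miR-133 share sequence, and their reads may lie among those that map to several places. Neuron loci summed to 45093 CPM in pup 1 and 40531 in pup 3, led by Mir137 (28264 and 23308 CPM) and Mir128-1 (10765 and 11337 CPM). Of the 6 tested, 2 were higher and 3 lower with totals (10.2% and 46.2% of all loci), and 3 were higher and 2 lower with size factors (24.5% and 20.8%). Mir137, the highest of them by these counts, stood below Mir126a in each pup. The list also holds Mir124a-1 (15 and 21 counts), Mir124a-2 (5 and 4 counts) and Mir124a-3 (3 and 2 counts). As with miR-1 and miR-133, reads of these copies may be missing because they match several places, which was not tested. The neuron sum may therefore be too low, and the place of Mir126a against all neuron miRNAs is not settled.

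Loci next in level were compared by rank. Above Mir126a stood Mirlet7g (66273 ± 1811 CPM) and Mirlet7i (40763 ± 13693 CPM), and below it Mir100 (32261 ± 3663 CPM) and Mir149 (26439 ± 1170 CPM). Mirlet7i had more counts than Mir126a in each pup (85247 and 122435) and Mir100 fewer (81378 and 84586), although these means lie closer than the SD between the pups. Mir143 lay between Mir128-2 (4084 ± 319 CPM) and Mir181d (3861 ± 485 CPM), with Mir429 and Mir151 next. It stood above Mir181d and Mir151 in each pup, and its order with Mir128-2 and Mir429 differed between the pups. Mir145a lay between Mir666 (125 ± 34.9 CPM) and Mir1249 (122 ± 18.7 CPM), with Mir214 and Mir495 next, and its order with each of the 4 differed between the pups.

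The loci whose ratio between the pups was nearest to each member were taken from those with at least 100 counts in both libraries. Likeness here is the difference of 2 log2 ratios over 2 libraries, so many loci lie close by. Nearest to Mir126a were Mir16-2, Mir100 and Mir125b-1, with log2 ratios of 0.22, 0.23 and 0.24. Mir16-2 and Mir125b-1 share a run of sequence with other hairpins. Nearest to Mir143 were Mir1306, Mir192 and Mir5099, at −0.22, −0.22 and −0.23. Nearest to Mir145a were Mir221, Mir331 and Mir185, each at −0.30.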

How the data were processed

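For each of the 2 libraries the authors deposited raw, not normalized read counts by miRNA gene. Assembly mm10 and annotation M4 were used, per the labels and the deposited notes. Which aligner and counting tool made them is not given in the sources used here. The 3 count columns hold both strands, the gene strand and the opposite strand (no header says so; column 2 sums the other 2), and gene-strand counts were used. The first 4 rows, which name no gene, do not enter the totals. They held 13.4% and 12.3% of the 6657203 and 5883027 reads as unmapped, and 42.2% and 44.1% as mapping to several places. A further 3.23% and 2.27% lay on the gene strand of no miRNA locus, which takes in reads on the opposite strand of a locus.

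Of 1973 rows, 1894 matched GENCODE M21 (GRCm38) by identifier. Intervals are exact at 95%, and 3 counts were taken as the upper limit at 0. Loci were tested with totals by Fisher's exact test and with scaled sizes by an exact binomial test, adjusted at 0.05. There is no contrast for edgeR's quasi-likelihood test in a single group. The test was run on simulated counts with planted changes, drawn with counting error only. That check covers no spread between animals, no changes as small as those of the 3 members and no rate of false calls. Named loci are the 3 members, any miRNA locus within 10 kb and 2 neighbours in level on each side. The 3 nearest in ratio, the 2 highest of each list and some further list members are named too. Besides the hosts, other genes within 10 kb are Gm20532, which overlaps Mir126a on its strand, and Agpat2 and Bvht, which overlap no member. Members and lists were chosen with earlier results of these data known. The labels name separate pups, and p-values measure only the difference between these 2 libraries. Alternatives were other scales, strands, denominators, filters, pseudocounts, cluster distances and leaving out a replicate. Scaling used edgeR 4.0.16 and DESeq2 1.42.0 in R 4.3.3. Tests used scipy 1.17.1 with pandas 2.3.3 and numpy 2.4.6 in Python 3.11.15, and plots matplotlib 3.10.9.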

Additional observations from a re-analysis of the deposited data

Results flagged for a closer look

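On the strand opposite Mir126a, outside the column of the main measurement, pup 1 had 5 counts, above the 3 counts that a count of 0 allows. Pup 3 had 3 counts there. Mir126b lies on that strand.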

How the results depend on the processing

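Of 71 alternative values of 12 results, 53 kept their direction and their side of the threshold or moved within the spread. Mir126a kept its direction and its call in all 8 alternatives. Not all of these could change a call freely. Pseudocounts do not enter the test, and count filters leave the log2 ratio as it was and change only the adjustment. Mir143 turned to 0.031 with TMM sizes and 0.093 with DESeq2 size factors. Mir145a turned to 0.018 with size factors, and lost its call with TMM sizes (−0.044) and without the most abundant locus (−0.24). Higher and lower calls over all loci were 82 and 104 with TMM sizes and 98 and 83 with size factors, against 41 and 185. Per 1e+06 of all sequenced reads, the levels of Mir126a, Mir143 and Mir145a were 13624, 1650.1 and 50.9, and without the most abundant locus 45312, 5472 and 169 CPM. Over Mir145a alone, the endothelial to mural ratio was 273. Of 32 clusters with at least 100 counts per locus, 9 had a gap as large as Mir143 over Mir145a or larger, itself included. Where loci share no run it was 9 of 26, against 17 of 42 in the main setting, itself included in both. Leaving out a replicate gave 30517 to 35573, 3698 to 4307 and 111 to 136 CPM, ratios of 6.87 to 9.34 and of 31.7 to 33.4, and 17 clusters each time. No paired analysis was possible because there is a single group. The depth of Mir145a, 373 and 269 counts, limits the ratio within the cluster.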
